A study of Homo sapiens with 40 samples.

Results

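The transcriptome of hTERT-RPE1 cells was compared between CASP8AP2 siRNA and control siRNA on day 2 after transfection. hTERT-RPE1 is a line of normal human retinal pigment epithelial cells immortalized with telomerase. The comparison was chosen by the array titles and holds 6 of the 40 arrays of the series, 3 with a pool of siRNAs against CASP8AP2 and 3 with a negative control pool. Both groups received 15 nM of siRNA, and the arrays of a group were labelled as biological replicates. All 22069 genes of the array table were tested, each as 1 log2 expression value per array. The other arrays used here came from hTERT-RPE1 cells on day 1 (3 against 3) and day 3 (2 against 2), and from U2OS osteosarcoma cells on day 2 (3 against 3), with the same siRNA pools. A pool of siRNAs lowers a transcript without removing it, and no second pool against CASP8AP2 or rescue was analysed here.

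CASP8AP2, also called FLASH, is a component of the histone locus body, the nuclear structure in which the replication-dependent histone genes are transcribed and their transcripts processed. It acts there with NPAT, a coactivator of histone genes, and HINFP, a transcription factor of histone genes. Replication-dependent histones are made in S phase, when new DNA has to be packed into nucleosomes. The transcription factor p53 acts through target genes that stop the cycle and through others that prime the cell for apoptosis.

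Values on the 6 arrays lay between 1.86 and 13.32 on the log2 scale, and replicates correlated with r between 0.9956 and 0.9975. No array was identical to another. The standard error of a gene's fold change had a median of 0.09 on the log2 scale. It rests on 3 arrays per group and on a spread estimated from all 24 arrays of days 1 and 2. A symbol was paired with 1902 of the 22069 genes (8.62%), all of them genes listed in the siRNA screens of the study, so a gene group can only be described by its members among these. None of the members of 5 lists of canonical histone genes had a symbol here, and neither had CDKN1A nor MDM2, so they are not named.

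On day 2, 1413 of 22069 genes (6.4%) passed an adjusted p of 0.05 (limma, Benjamini-Hochberg over all genes), 937 higher (4.25%) and 476 lower (2.16%) with CASP8AP2 siRNA. Among the genes with a symbol, 204 of 1902 (10.7%) passed, 151 higher (7.94%) and 53 lower (2.79%). The large changes were rises. A log2 fold change of at least 1 in size was reached by 72 called genes that rose (0.326%) and by 1 that fell (0.00453%), and among the genes with a symbol by 7 that rose and 0 that fell. Among the 7 were CCNA1, MCAM, PGF, KCNJ15, SPINT1 and LAMB3. The 3 siRNA arrays did not overlap with the 3 control arrays in 4513 of all genes (20.4%) and in 494 of those with a symbol (26%), which is the background for each statement below that groups did not overlap. The direction of the split depended on the scaling, since with each array centred on its own median 703 genes were higher and 974 lower. The count fell to 874 without siRNA replicate 3, and to 495 when the spread was estimated from these 6 arrays alone.

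**Figure D1:**
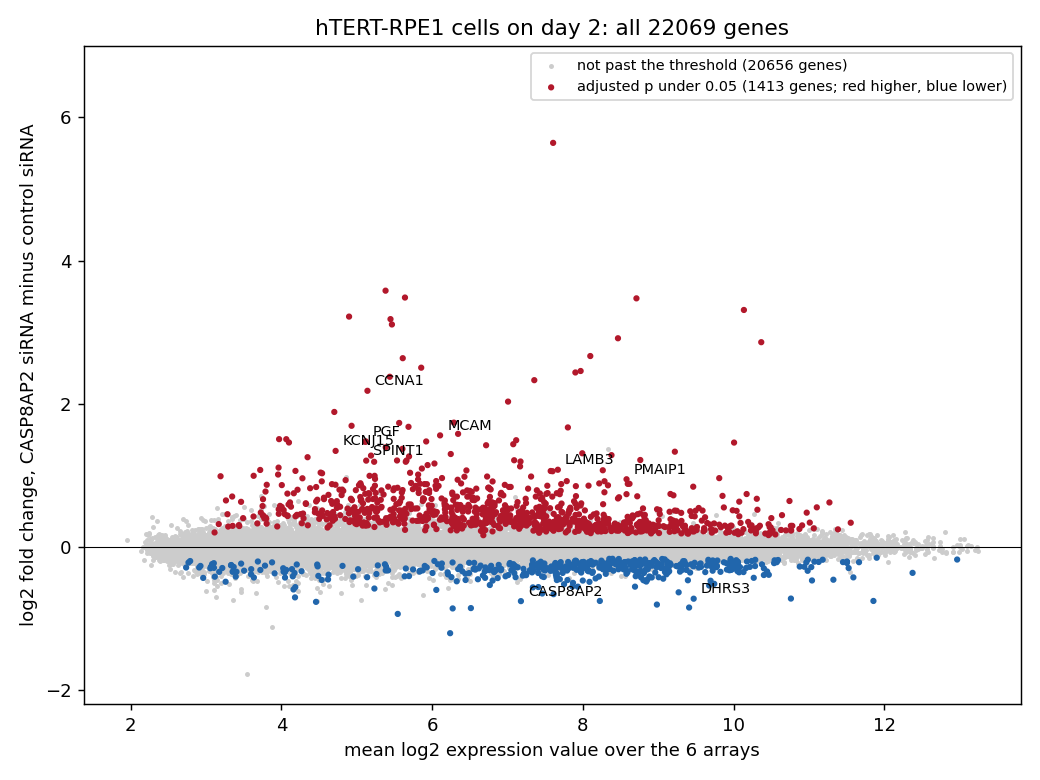
Each point is 1 of 22069 genes, with its mean log2 expression value over the 6 arrays on the x axis and its log2 fold change (CASP8AP2 siRNA minus control siRNA, hTERT-RPE1 cells on day 2) on the y axis. The 937 higher genes (red) reach 5.65, whereas the 476 lower genes (blue) reach -1.21.

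The targeted transcript was examined first. CASP8AP2 (ENSG00000118412) had values of 7.71, 7.30 and 7.66 with control siRNA and 6.84, 6.91 and 6.64 with CASP8AP2 siRNA. The groups did not overlap, and CASP8AP2 was the gene with a symbol that fell furthest, by a log2 fold change of -0.76 (SE 0.09, adjusted p 1.55e-05), which left 59.1% of the transcript. Its partners at the histone locus body did not pass the test. NPAT (ENSG00000149308) changed by 0.07 (SE 0.06, adjusted p 0.614) and HINFP (ENSG00000172273) by 0.01 (SE 0.06, adjusted p 0.958), and the groups overlapped for both.

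None of 4 histone chaperones passed in limma, and none had an unadjusted p under 0.05. The largest change among them was in CHAF1B, a subunit of the chromatin assembly factor that deposits histones behind the replication fork, with -0.10 (SE 0.05, adjusted p 0.292).

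Cyclins moved in opposite directions. CCNA1 (ENSG00000133101), the cyclin A of male germ cells, had values of 4.23, 3.78 and 4.14 with control siRNA and 6.05, 6.18 and 6.46 with CASP8AP2 siRNA. It rose 4.53-fold, with a log2 fold change of 2.18 (SE 0.14, adjusted p 1.06e-09). Its control values lay below 5.50, the median of all values on the 6 arrays, and its siRNA values lay above that median. CCNE1 (ENSG00000105173), the cyclin that drives entry into S phase with CDK2 and through which NPAT is phosphorylated, had values of 7.36, 7.33 and 7.53 with control siRNA and 7.12, 7.01 and 6.96 with CASP8AP2 siRNA. It fell in every siRNA array below every control array, by a log2 fold change of -0.37 (SE 0.06, adjusted p 0.000384). The call of CCNE1 was lost when the spread came from the 6 arrays alone (adjusted p 0.0676). Of the 11 cyclins, CDK inhibitors and RB and E2F genes with a symbol, these were the only members that passed, beside 10.7% of all genes with a symbol. The median log2 fold change of the 11 was -0.03, against -0.02 over all genes. CCNA2, the cyclin A of dividing somatic cells, changed by -0.19 (SE 0.07, adjusted p 0.122) and CCNE2 by -0.13 (SE 0.06, adjusted p 0.186).

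Genes of mitosis and the spindle were slightly lower as a group. Of 8 members with a symbol, 7 passed the test and all 7 fell, whereas 2.79% of the genes with a symbol were called lower. The list was chosen with earlier results of these data known, so this contrast is descriptive. The median log2 fold change of the 8 was -0.25, against 0.00 over the genes with a symbol. KIF2C, a kinesin that takes microtubules apart at the kinetochore, had values of 8.52, 8.48 and 8.45 with control siRNA and 8.10, 8.21 and 8.19 with CASP8AP2 siRNA and changed by -0.32 (SE 0.06, adjusted p 0.00236). NUF2, a subunit of the complex that attaches kinetochores to microtubules, had values of 9.23, 9.21 and 9.30 with control siRNA and 8.95, 9.01 and 8.88 with CASP8AP2 siRNA and changed by -0.30 (SE 0.05, adjusted p 0.000569). ESPL1, the separase that cuts cohesin at anaphase, had values of 8.09, 7.98 and 7.98 with control siRNA and 7.73, 7.68 and 7.76 with CASP8AP2 siRNA and changed by -0.29 (SE 0.07, adjusted p 0.00815). In all 3 genes every siRNA array was below every control array.

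The other 4 members that fell are outside the rule for named genes and are given so that each member is accounted for. CDCA8, a subunit of the chromosomal passenger complex, changed by -0.26 (SE 0.07, adjusted p 0.0185), and KIF14, a kinesin of cytokinesis, by -0.24 (SE 0.06, adjusted p 0.0135). KIF11, the kinesin that separates the spindle poles, changed by -0.19 (SE 0.05, adjusted p 0.0324), and KIF23, a kinesin of the central spindle, by -0.18 (SE 0.05, adjusted p 0.0316). ECT2, the exchange factor that starts the cleavage furrow, did not pass with -0.08 (SE 0.06, adjusted p 0.535). The arrays measure whole cultures, so fewer cells in mitosis and less of each transcript per cell cannot be told apart. The call was less firm than the direction, since 3 of the 8 passed without siRNA replicate 3 and 0 of 8 passed in limma when the spread came from the 6 arrays alone, where 7 had an unadjusted p under 0.05 and the median was also -0.25.

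The promoters of the 7 members that fell are shown. Many genes of mitosis carry a CCAAT box followed by a cell cycle homology region (CHR) just before the start, and both were searched for on both strands in the 250 bases before the RefSeq start (GRCh38.p14). The 120 bases before the start are given 5′ to 3′ on the strand of the gene, with the letters CCAAT (or ATTGG, its reverse) and TTTGAA (or TTCAAA) in capitals. In CDCA8 the last CHR and CCAAT letters overlap.
CDCA8 (chr1:37692396-37692515, plus strand): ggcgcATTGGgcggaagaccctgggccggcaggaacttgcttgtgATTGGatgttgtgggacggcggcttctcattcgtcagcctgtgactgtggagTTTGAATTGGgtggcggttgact
ESPL1 (chr12:53268179-53268298, plus strand): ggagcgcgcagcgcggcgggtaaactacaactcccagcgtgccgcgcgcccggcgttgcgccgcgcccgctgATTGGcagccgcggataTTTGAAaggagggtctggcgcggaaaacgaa
KIF11 (chr10:92593010-92593129, plus strand): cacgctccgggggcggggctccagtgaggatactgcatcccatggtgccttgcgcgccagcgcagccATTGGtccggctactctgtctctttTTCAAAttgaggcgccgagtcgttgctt
KIF14 (chr1:200620752-200620871, minus strand): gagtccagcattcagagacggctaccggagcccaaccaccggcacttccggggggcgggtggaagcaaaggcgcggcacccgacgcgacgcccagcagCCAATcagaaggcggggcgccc
KIF23 (chr15:69414229-69414348, plus strand): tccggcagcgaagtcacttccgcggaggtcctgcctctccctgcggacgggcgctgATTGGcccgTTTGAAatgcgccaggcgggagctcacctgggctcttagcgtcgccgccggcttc
KIF2C (chr1:44739717-44739836, plus strand): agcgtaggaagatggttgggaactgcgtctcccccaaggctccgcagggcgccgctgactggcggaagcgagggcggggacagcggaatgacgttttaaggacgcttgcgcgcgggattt
NUF2 (chr1:163321834-163321953, plus strand): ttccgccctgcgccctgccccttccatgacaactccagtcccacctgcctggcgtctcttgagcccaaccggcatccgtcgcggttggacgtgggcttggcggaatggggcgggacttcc
CCAAT letters were in 5 of the 7 windows and TTTGAA letters in 4, against 32.7% and 13.9% of the 27305 promoters in the table. Both were in the windows of CDCA8, ESPL1, KIF11 and KIF23, and in 4.92% of all promoters. KIF2C and NUF2, which fell furthest of the 7, held neither in this window. The window of ECT2, the member that did not pass, held TTTGAA letters at 2 positions and no CCAAT letters. These matches describe the letters and do not show binding. All 7 genes came from a list of mitosis genes, and the shares are set against all promoters. A link between the letters and the falls was not tested.

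Among the 12 largest falls with a symbol, further genes act in cell division or in DNA repair. C13orf34 (ENSG00000136122, now BORA), a partner of Aurora A kinase in mitotic entry, had values of 7.44, 7.28 and 7.24 with control siRNA and 6.84, 7.01 and 6.83 with CASP8AP2 siRNA. It changed by -0.43 (SE 0.07, adjusted p 0.000797) on the log2 scale with no overlap between groups. G2E3 (ENSG00000092140), a ubiquitin ligase named for its expression in G2 and M phase, changed by -0.44 (SE 0.10, adjusted p 0.00745). UBE2V2 (ENSG00000169139), a partner of the ubiquitin-conjugating enzyme that modifies PCNA on damaged DNA, changed by -0.36 (SE 0.07, adjusted p 0.00396).

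Each of the 3 lists of replication and repair genes held 1 called member, a share near the 10.7% of all genes with a symbol. Of 9 members of replication licensing and origin firing with a symbol, MCM3, a subunit of the replicative helicase, was the 1 called, with -0.22 (SE 0.07, adjusted p 0.0425). Of 12 genes of DNA synthesis and nucleotide supply, UNG, which removes uracil from DNA, was the 1 called, with -0.30 (SE 0.08, adjusted p 0.0273). Of 13 genes of the DNA damage checkpoint and homologous repair, XRCC2, which acts in homologous recombination, was the 1 called, with -0.20 (SE 0.06, adjusted p 0.0374). All 3 fell, but none of the calls was firm. The call of MCM3 was lost without siRNA replicates 1, 2 or 3 or control replicates 2 or 3 (adjusted p 0.0679 to 0.186), that of UNG without siRNA replicates 1 or 3 or control replicate 2 (adjusted p 0.0849 to 0.103) and that of XRCC2 without siRNA replicates 1, 2 or 3 or control replicates 1 or 2 (adjusted p 0.0574 to 0.135).

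Of 9 p53 targets of apoptosis with a symbol, 3 passed and all 3 rose, beside 7.94% of the genes with a symbol called higher, and 1 of the 9 passed with the 6 arrays alone. PMAIP1 (ENSG00000141682), which encodes the BH3-only protein NOXA, had values of 7.95, 8.25 and 8.12 with control siRNA and 8.99, 9.03 and 9.13 with CASP8AP2 siRNA. The groups were well apart, and the log2 fold change was 0.94 (SE 0.07, adjusted p 1.3e-08), a 1.92-fold rise. LRDD (now PIDD1), which encodes the scaffold of the caspase-2 platform, changed by 0.29 (SE 0.06, adjusted p 0.00398). APAF1, the core of the apoptosome, changed by 0.21 (SE 0.06, adjusted p 0.0352), a call that was lost without siRNA replicates 2 or 3 or control replicates 1 or 2 (adjusted p 0.066 to 0.116). The other 6 of the 9 members with a symbol did not pass, among them BBC3 (PUMA) with 0.14 (SE 0.18, adjusted p 0.759) and BAX with -0.02 (SE 0.07, adjusted p 0.942), and the median of the 9 was 0.07.

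Beside 10.7% of all genes with a symbol, 1 of 3 p53 targets of arrest, feedback and stress with a symbol passed. This was HBEGF, a ligand of the EGF receptor, which had values of 9.88, 9.92 and 9.98 with control siRNA and 10.26, 10.23 and 10.29 with CASP8AP2 siRNA and changed by 0.33 (SE 0.05, adjusted p 0.000243). TRIM22 did not pass, with 0.22 (SE 0.07, adjusted p 0.0652). Neither of the p53 targets of DNA repair with a symbol passed in limma, and 1 had an unadjusted p under 0.05. This was XPC, the damage sensor of nucleotide excision repair, with 0.22 (SE 0.07, adjusted p 0.0766). XPC passed without siRNA replicate 1 (adjusted p 0.0387) and without control replicate 3 (adjusted p 0.0136). A symbol was paired with 9 of 20, 3 of 30 and 2 of 12 genes of these lists, so the counts do not speak for each list as a whole.

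**Figure D2:**
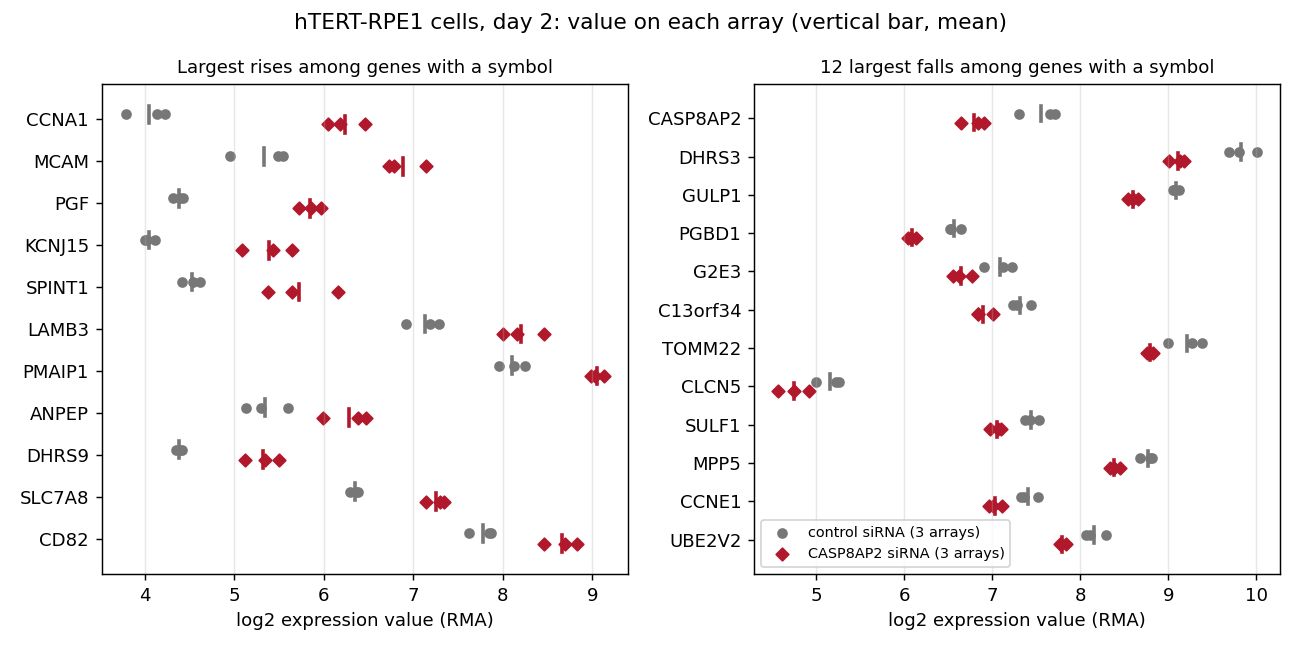
Log2 expression values on each of the 6 arrays of hTERT-RPE1 cells on day 2 for 11 of the 12 largest rises (left) and the 12 largest falls (right) among genes with a symbol, with control siRNA in grey, CASP8AP2 siRNA in red and a vertical bar at each mean. CCNA1 shows the widest gap of those plotted, and every fall (0.36 to 0.76 in size) is smaller than every rise plotted (0.89 to 2.18).

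Among the largest rises were proteins of the cell surface and the extracellular space. MCAM (ENSG00000076706), an adhesion molecule of the immunoglobulin family, had values of 5.54, 5.48 and 4.95 with control siRNA and 6.79, 6.73 and 7.14 with CASP8AP2 siRNA. It rose 2.94-fold, with a log2 fold change of 1.56 (SE 0.12, adjusted p 1.75e-08). PGF (ENSG00000119630), placental growth factor, a ligand of the VEGF family, had values of 4.43, 4.32 and 4.40 with control siRNA and 5.72, 5.86 and 5.96 with CASP8AP2 siRNA. It rose 2.76-fold, with a log2 fold change of 1.47 (SE 0.12, adjusted p 3.6e-08), and its 3 siRNA arrays lay more than 1 log2 unit above every control array.

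SPINT1 (ENSG00000166145), a membrane-bound inhibitor of serine proteases in epithelia, had values of 4.62, 4.41 and 4.54 with control siRNA and 5.64, 5.38 and 6.16 with CASP8AP2 siRNA. Its siRNA arrays were spread more widely than its controls but stayed above them, and it changed by 1.20 (SE 0.14, adjusted p 6.64e-06). LAMB3 (ENSG00000196878), a chain of an epithelial basement membrane laminin, had values of 7.19, 7.28 and 6.92 with control siRNA and 8.16, 8.00 and 8.46 with CASP8AP2 siRNA and changed by 1.08 (SE 0.11, adjusted p 1.09e-06). CD82 (ENSG00000085117), a tetraspanin known as a suppressor of metastasis, had values of 7.84, 7.87 and 7.62 with control siRNA and 8.46, 8.70 and 8.83 with CASP8AP2 siRNA and changed by 0.89 (SE 0.09, adjusted p 6.4e-07). ANPEP (ENSG00000166825), an aminopeptidase of the cell surface, had values of 5.60, 5.30 and 5.13 with control siRNA and 6.39, 5.99 and 6.47 with CASP8AP2 siRNA and changed by 0.94 (SE 0.16, adjusted p 0.000436). In all 4 genes the groups did not overlap.

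Transporters were found on both sides. KCNJ15 (ENSG00000157551), an inward rectifier potassium channel, had values of 4.00, 4.03 and 4.11 with control siRNA and 5.43, 5.09 and 5.65 with CASP8AP2 siRNA and changed by 1.34 (SE 0.13, adjusted p 8.12e-07), a 2.53-fold rise. SLC7A8 (ENSG00000092068), the light chain of a neutral amino acid exchanger, had values of 6.38, 6.36 and 6.29 with control siRNA and 7.34, 7.14 and 7.30 with CASP8AP2 siRNA and changed by 0.91 (SE 0.08, adjusted p 5.53e-08). CLCN5 (ENSG00000171365), a chloride and proton exchanger of endosomes, fell from 5.00, 5.23 and 5.26 to 4.92, 4.57 and 4.75, a change of -0.42 (SE 0.11, adjusted p 0.0224) on the log2 scale. The call of CLCN5 was lost without siRNA replicates 2 or 3 or control replicates 2 or 3 (adjusted p 0.0676 to 0.124). SLC7A8 and KCNJ15 lost their calls in no setting that was tried.

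Retinoid enzymes moved in opposite directions. DHRS3 (ENSG00000162496), which reduces retinal to retinol, had values of 9.69, 10.01 and 9.80 with control siRNA and 9.18, 9.01 and 9.13 with CASP8AP2 siRNA. It changed by -0.73 (SE 0.13, adjusted p 0.00148) on the log2 scale. DHRS9 (ENSG00000073737), a dehydrogenase that oxidizes retinol, had values of 4.35, 4.42 and 4.39 with control siRNA and 5.50, 5.34 and 5.12 with CASP8AP2 siRNA. It rose by 0.93 (SE 0.10, adjusted p 1.78e-06), and the groups overlapped for neither gene. The other 9 of the 11 members of retinoid metabolism and response with a symbol did not pass, and the median of the 11 was -0.04. For comparison, 10.7% of all genes with a symbol passed.

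Inflammatory and complement genes that passed were rises with a single exception, and 2 of 11 and 3 of 6 passed, beside 10.7% of all genes with a symbol. Of 11 NF-kB cytokine and survival genes with a symbol, 2 passed. TNFAIP2, a gene induced by TNF, had values of 6.65, 6.60 and 6.56 with control siRNA and 7.35, 7.49 and 7.47 with CASP8AP2 siRNA and changed by 0.84 (SE 0.07, adjusted p 5.68e-08), and TNFAIP3, the ubiquitin-editing enzyme that restrains NF-kB, had values of 6.89, 6.97 and 6.94 with control siRNA and 7.37, 7.35 and 7.47 with CASP8AP2 siRNA and changed by 0.47 (SE 0.06, adjusted p 3.46e-05). The cytokine genes of the list did not pass, with 0.14 (SE 0.12, adjusted p 0.601) for IL8 and 0.27 (SE 0.15, adjusted p 0.353) for IL1A. Of 6 genes in the list of complement components and regulators, C3, the central complement component, changed by 0.67 (SE 0.10, adjusted p 9.28e-05). C1QTNF1, a secreted protein related to C1q but not itself a complement component, changed by 0.51 (SE 0.09, adjusted p 0.00143). The 3 of 6 that passed include C1QTNF1. MASP2, a protease of the lectin pathway, had low values of 4.29, 4.23 and 4.36 with control siRNA and 3.92, 3.94 and 4.09 with CASP8AP2 siRNA and changed by -0.31 (SE 0.08, adjusted p 0.0268), a call that was lost without siRNA replicates 1 or 2 or control replicates 1 or 3 (adjusted p 0.0591 to 0.109). Neither of the interferon-stimulated genes with a symbol passed in limma, and 1 had an unadjusted p under 0.05, which was STAT2, a factor of the interferon response, with 0.17 (SE 0.06, adjusted p 0.108). STAT2 passed without control replicate 1 (adjusted p 0.0475).

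Signalling and matrix genes were called member by member. In the Notch list 2 of 5 members passed, and in the matrix list 2 of 18 rose and 1 fell. Of all genes with a symbol 10.7% passed. Of 5 Notch pathway genes, JAG1, a Notch ligand, had values of 7.58, 7.48 and 7.64 with control siRNA and 8.24, 8.08 and 8.28 with CASP8AP2 siRNA and changed by 0.64 (SE 0.07, adjusted p 2.99e-06). HEY1, a Notch target, changed by 0.45 (SE 0.11, adjusted p 0.0151), a call that was lost without siRNA replicates 2 or 3 or control replicate 3 (adjusted p 0.0576 to 0.0717). Of 18 genes of hyaluronan, heparan sulfate and matrix, HAS2, the main hyaluronan synthase, changed by 0.55 (SE 0.10, adjusted p 0.00103) and COL6A3, a chain of collagen VI, by 0.37 (SE 0.06, adjusted p 0.00059). COL6A3 lost its call when the spread came from the 6 arrays alone (adjusted p 0.101). SULF1 (ENSG00000137573), which removes sulfate groups from heparan sulfate, fell from 7.43, 7.37 and 7.53 to 6.98, 7.07 and 7.10, a change of -0.40 (SE 0.10, adjusted p 0.0203) on the log2 scale, a call that was lost without siRNA replicate 1 or control replicate 3 (adjusted p 0.0848 to 0.0861). None of 8 Wnt genes passed in limma, and 1 had an unadjusted p under 0.05, which was RSPO3, a secreted enhancer of Wnt signalling, with -0.34 (SE 0.10, adjusted p 0.06). RSPO3 passed without control replicate 3 (adjusted p 0.0456).

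In the lists of the stress response, hypoxia and lipid synthesis, 2 of 10, 1 of 6 and 2 of 9 members passed, beside 10.7% of all genes with a symbol. Of 10 genes of ATF4 and the unfolded protein response, DNAJB9, a chaperone of the endoplasmic reticulum, changed by 0.54 (SE 0.09, adjusted p 0.000267). SLC7A11, the cystine transporter, changed by -0.23 (SE 0.06, adjusted p 0.0313), a call that was lost without siRNA replicates 1, 2 or 3 or control replicates 2 or 3 (adjusted p 0.0536 to 0.146). Of 6 hypoxia-responsive genes, P4HA2, a collagen prolyl hydroxylase, changed by 0.32 (SE 0.07, adjusted p 0.00472). The call of P4HA2 was lost when the spread came from the 6 arrays alone (adjusted p 0.107). Of 9 genes of cholesterol and fatty acid synthesis, EBP and LSS, enzymes of the late cholesterol pathway, changed by 0.38 (SE 0.09, adjusted p 0.0115) and 0.32 (SE 0.07, adjusted p 0.00788). The call of EBP was lost without control replicate 3 (adjusted p 0.08). With the 6 arrays alone, EBP and LSS both lost their calls (adjusted p 0.165 and 0.109). Neither of the protocadherin beta genes with a symbol passed in limma, and none had an unadjusted p under 0.05. The larger change was in PCDHB5, with 0.22 (SE 0.12, adjusted p 0.374).

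Among the 12 largest falls the remaining genes have separate roles. GULP1 (ENSG00000144366), an adaptor for the engulfment of dying cells, had values of 9.06, 9.07 and 9.12 with control siRNA and 8.60, 8.65 and 8.55 with CASP8AP2 siRNA and changed by -0.49 (SE 0.09, adjusted p 0.00125). PGBD1 (ENSG00000137338), derived from a piggyBac transposase, changed by -0.48 (SE 0.08, adjusted p 0.000267). TOMM22 (ENSG00000100216), a receptor for protein import into mitochondria, changed by -0.43 (SE 0.08, adjusted p 0.00173). MPP5 (ENSG00000072415, now PALS1), a scaffold of epithelial polarity, changed by -0.38 (SE 0.06, adjusted p 0.000198). In each of the 4 genes every siRNA array was below every control array.

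**Figure D3:**
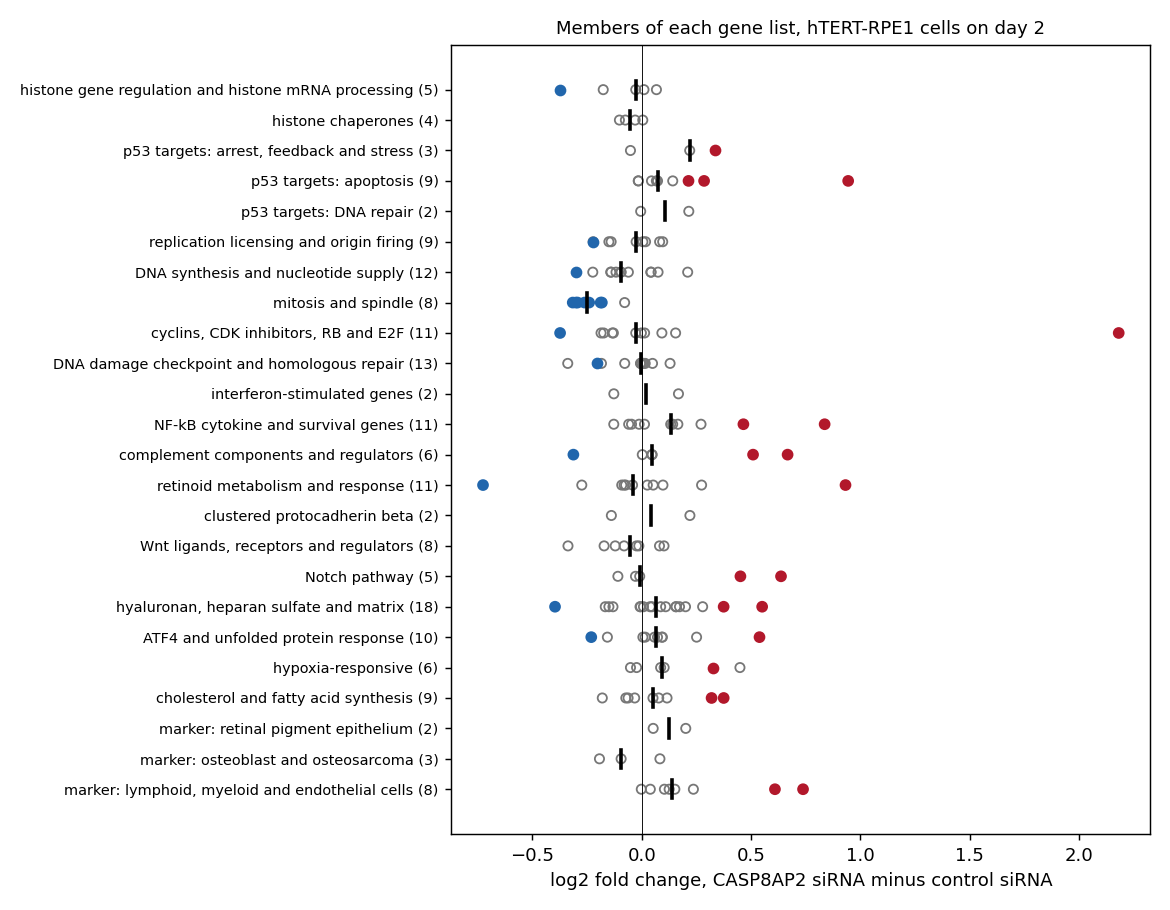
Log2 fold changes (x axis, CASP8AP2 siRNA minus control siRNA, hTERT-RPE1 cells on day 2) of the members of 24 gene lists, with the number of members that have a symbol in brackets. Red and blue points passed an adjusted p of 0.05, open points did not, and a black bar marks the median. In mitosis and spindle 7 of 8 members lie to the left and passed, and no other list has more than 3 called members in 1 direction.

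Over all lists, with each gene counted once, 36 of 174 members with a symbol passed (20.7%), 21 higher and 15 lower, beside 10.7% of all genes with a symbol. The split was 20 and 20 with each array centred on its median and 15 and 2 with the 6 arrays alone. The lists were chosen with earlier results of these data known. The share of 20.7% and the shares of single lists are therefore descriptive and do not test the lists. Markers of cell types were examined in the same way. Both markers of retinal pigment epithelium with a symbol were near the bottom of the range and did not pass in limma, with no unadjusted p under 0.05. BEST1, a chloride channel of that epithelium, had values of 4.23, 3.91 and 3.66 with control siRNA and 4.14, 4.06 and 4.21 with CASP8AP2 siRNA, and the summed linear level of BEST1 and RLBP1 lay between 30.4 and 39.2 with control siRNA and between 31.2 and 39.5 with CASP8AP2 siRNA. These are 2 of 19 markers on the list, and neither was at a level that sets the cells apart as that epithelium. CDH2, the N-cadherin, was high with values of 11.33, 11.32 and 11.45 with control siRNA and 11.40, 11.42 and 11.18 with CASP8AP2 siRNA. None of 3 osteoblast markers passed in limma, and none had an unadjusted p under 0.05, with -0.19 (SE 0.12, adjusted p 0.417) for RUNX2, the transcription factor of osteoblasts.

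Of 8 markers of lymphoid, myeloid and endothelial cells with a symbol, 2 passed, and both rose. Among all genes with a symbol 7.94% were called higher. CD79A, a subunit of the B cell receptor, had values of 4.91, 4.73 and 4.75 with control siRNA and 5.38, 5.60 and 5.61 with CASP8AP2 siRNA and changed by 0.74 (SE 0.09, adjusted p 7.85e-06). CSF1R, the receptor of macrophage colony-stimulating factor, had values of 6.11, 5.78 and 5.69 with control siRNA and 6.41, 6.47 and 6.52 with CASP8AP2 siRNA and changed by 0.61 (SE 0.10, adjusted p 0.000622). The summed linear level of the 8 markers lay between 167 and 189 with control siRNA and between 221 and 239 with CASP8AP2 siRNA, so the groups did not overlap. The sum includes CD79A and CSF1R, so it adds no support beyond their calls. The defining markers CD3D, CD3E, CD14, VWF and CDH5 did not pass, with log2 fold changes of 0.13, 0.04, 0.24, 0.15 and -0.00. The part of such cells in the results was not tested.

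The effect on day 2 was compared with that on day 1, which had its own control arrays. On day 1, 175 genes (0.793%) passed, 20 of them with a symbol (1.05% of those), and all 20 also passed on day 2 in the same direction. The 20 are 9.8% of the 204 called on day 2. The difference between the days, tested as an interaction term, passed for 144 genes (0.652%), with a higher value on day 2 for 133 and a lower one for 11. Without siRNA replicate 3 of day 1 the count was 83, and without siRNA replicate 3 of day 2 it was 88. With a symbol the count was 22 (1.16%), of which 21 genes had a higher and 1 a lower effect on day 2.

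CCNA1 showed the largest difference with a symbol. Its log2 fold change was -0.13 (adjusted p 0.873) on day 1 and 2.18 on day 2, a difference of 2.31 (adjusted p 9.65e-07). SPINT1 followed, with 0.00 (adjusted p 0.997) on day 1 and a difference of 1.20 (adjusted p 0.00285). MCAM differed by 1.07 (adjusted p 0.0019) and PGF by 1.04 (adjusted p 0.00218), and neither had passed on day 1. NRG3, a ligand of ERBB4, was the 1 gene with a symbol whose effect was lower on day 2, with 0.27 (adjusted p 0.248) on day 1, -0.35 on day 2 and a difference of -0.62 (adjusted p 0.0289). Its values on day 2 were low, 4.20, 4.22 and 4.18 with control siRNA and 4.06, 3.54 and 3.96 with CASP8AP2 siRNA, and its call on day 2 was lost without siRNA replicate 2 or control replicates 1, 2 or 3 (adjusted p 0.0561 to 0.143).

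CASP8AP2 itself changed by -0.85 (adjusted p 1.79e-05) on day 1, with a difference of 0.09 (adjusted p 0.906). Among the spindle genes, KIF2C with -0.30 (adjusted p 0.0186) and NUF2 with -0.27 (adjusted p 0.0102) had passed on day 1, and their differences were -0.01 (adjusted p 0.987) and -0.03 (adjusted p 0.95).

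Day 3 had 2 arrays per group and values that appeared to be normalized separately, so its effects are given side by side without a test of the difference. All of the 11 rises plotted also passed on day 3, and 5 of the 12 largest falls did. CCNA1 changed by 3.49 (adjusted p 1.72e-07) on day 3, KCNJ15 by 2.27 (adjusted p 2.52e-08) and MCAM by 1.95 (adjusted p 1.02e-07). C3 changed by 2.47 (adjusted p 0.000172) and HAS2 by 2.08 (adjusted p 7.03e-06), against 0.67 and 0.55 on day 2. DHRS3 changed by -1.59 (adjusted p 6.33e-06). The spindle genes did not pass on day 3, with -0.03 (adjusted p 0.943) for KIF2C and 0.00 (adjusted p 0.994) for NUF2, and the median of the 8 members was -0.01. On day 3, 180 genes with a symbol passed (9.46%). Of the 204 called on day 2, 86 also passed on day 3, all in the same direction, which is 42.2% of those on day 2 and 47.8% of those on day 3.

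**Figure D4:**
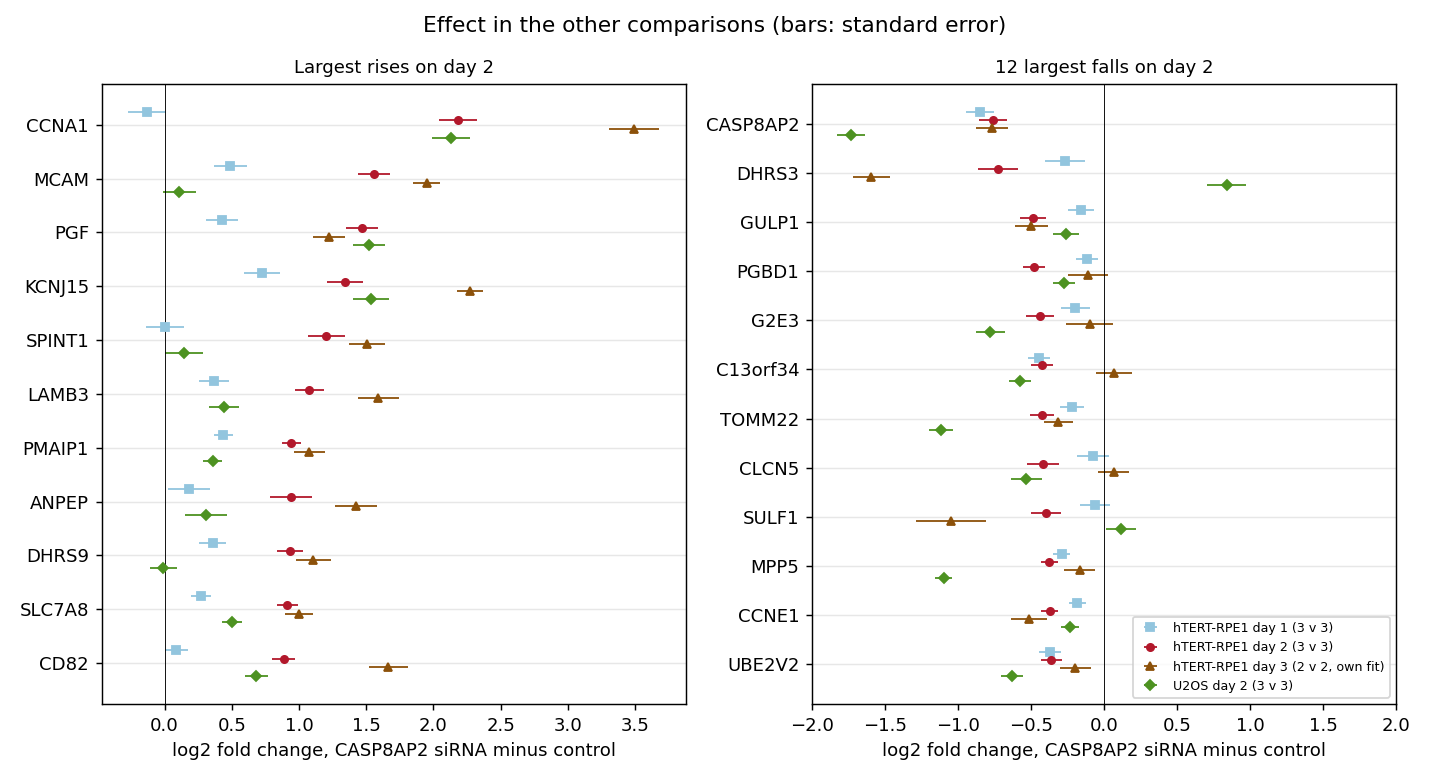
Log2 fold changes (x axis, CASP8AP2 siRNA minus control siRNA) with their standard errors as bars, for 11 of the 12 largest rises (left) and the 12 largest falls (right) of hTERT-RPE1 cells on day 2, beside hTERT-RPE1 cells on day 1 and day 3 and U2OS cells on day 2. On day 2, CCNA1 lies at 2.18 in hTERT-RPE1 cells and at 2.13 in U2OS cells, MCAM at 1.56 and 0.11, and DHRS3 lies on opposite sides of 0, at -0.73 and 0.84.

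The effect on day 2 was in part shared between the cell lines and in part differed. Of the 204 genes with a symbol called in hTERT-RPE1 cells, 148 also passed in U2OS cells (72.5%), 143 in the same direction. In U2OS cells 33.8% of all genes with a symbol passed. Of the 11 rises plotted 7 passed there in either direction, and of the 12 largest falls 11. The median of the 8 mitosis and spindle genes was -0.33 there, against -0.25 in hTERT-RPE1 cells. In U2OS cells 5492 genes (24.9%) passed on day 2, and the difference between the lines passed for 2073 genes (9.39%), with a higher effect in hTERT-RPE1 cells for 1066 and a lower one for 1007. With cyclic loess the split was 761 and 1209. CASP8AP2 was lowered more in U2OS cells, where it changed by -1.73 (adjusted p 2.01e-11), a difference of 0.97 (adjusted p 4.56e-05), so the lines were not compared at equal knockdown.

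MCAM rose in hTERT-RPE1 cells alone of the 2, with 0.11 (adjusted p 0.592) in U2OS cells and a difference of 1.45 (adjusted p 7.17e-06). For PCDHB5 the difference came from a fall in U2OS cells, with -1.28 (adjusted p 9.95e-08) there and a difference of 1.50 (adjusted p 7.02e-06). CCNA1, PGF and KCNJ15 rose in both lines, with 2.13 (adjusted p 4.39e-10), 1.52 (adjusted p 4.33e-09) and 1.54 (adjusted p 2.04e-08) in U2OS cells, and their differences of 0.05 (adjusted p 0.928), -0.05 (adjusted p 0.902) and -0.19 (adjusted p 0.615) did not pass.

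The 4 largest differences in the other direction were genes that rose in U2OS cells and did not pass in hTERT-RPE1 cells on day 2. DKK1, a secreted inhibitor of Wnt signalling, changed by 0.10 (SE 0.11, adjusted p 0.703) in hTERT-RPE1 cells and by 2.34 (adjusted p 3.78e-12) in U2OS cells. ANGPT2, a ligand of the TIE2 receptor, changed by 0.03 (SE 0.10, adjusted p 0.918) and 2.12 (adjusted p 6.32e-12). IL13RA2, a decoy receptor of interleukin 13, changed by -0.04 (SE 0.12, adjusted p 0.904) and 1.79 (adjusted p 4.75e-10), and ZNF280A by 0.00 (SE 0.12, adjusted p 0.995) and 1.60 (adjusted p 2.72e-09). The differences were -2.24 (adjusted p 9.69e-09), -2.09 (adjusted p 1.02e-08), -1.83 (adjusted p 3.77e-07) and -1.59 (adjusted p 2.45e-06). DHRS3 was called in both lines with opposite signs, and its difference was -1.56 (adjusted p 1.11e-05).

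Among called genes, the largest changes each way belonged to genes without a paired symbol. ENSG00000130513 had values of 4.99, 4.50 and 4.86 with control siRNA and 10.33, 10.19 and 10.77 with CASP8AP2 siRNA, a log2 fold change of 5.65 (SE 0.15, adjusted p 5.41e-16) and a 50-fold rise. ENSG00000252421 had values of 3.61, 3.65 and 3.51 with control siRNA and 7.15, 6.84 and 7.52 with CASP8AP2 siRNA and changed by 3.58 (SE 0.19, adjusted p 4.81e-11). The largest falls among called genes were in ENSG00000124610, with values of 7.09, 6.69 and 6.74 with control siRNA and 5.83, 5.60 and 5.47 with CASP8AP2 siRNA and a change of -1.21 (SE 0.12, adjusted p 1.09e-06), and in ENSG00000256604, with -0.94 (SE 0.20, adjusted p 0.00578). The groups did not overlap in any of the 4. ENSG00000130513 had also risen on day 1, by 3.21 (adjusted p 1.21e-11), and ENSG00000124610 had also fallen, by -1.12 (adjusted p 1.64e-05).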

How the data were processed

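Total RNA was profiled on Affymetrix Human WT 1.1 arrays. The authors processed the arrays with affy, a custom grouping of probes (1 probe set per Ensembl gene) and, per the labels, RMA, and deposited log2 values for 22069 genes. The genome build and versions were not given in the sources used here. RMA gives arrays nearly equal distributions, so a change in total RNA is not seen, and it compresses folds of low transcripts. The mean value of an array was 6.00 to 6.05 in the sets of days 1 and 2 but 5.85 to 5.88 in that of day 3, so the sets were taken as normalized separately and fitted apart.

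limma 3.58.1 (R 4.3.3, lmFit and eBayes) was fitted to the 24 arrays of days 1 and 2 with a mean for each of 8 groups (16 residual degrees of freedom), and to the 16 arrays of day 3 (8 degrees of freedom). Tests were two-sided, with p-values adjusted by Benjamini-Hochberg over all genes and a threshold of 0.05. The fit was tested on simulated data. Groups were taken from the array titles. Alternatives were other scalings, the arrays compared alone, a trended robust prior, array weights, a filter on low genes, the replicate block and each array left out.

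Symbols came from the study's screen tables and are printed as written there. Named genes were the 12 largest called rises and falls with a symbol and no overlap between groups, up to 3 called members each way per list (or the largest change where none was called), the 4 largest differences each way between days and lines, and CASP8AP2, NPAT, HINFP and CCNA1. Some genes that this rule names are not reported here. The members and the 32 lists were chosen with earlier results of these data known. The 2 largest changes each way without a symbol were added. RefSeq promoters were matched by gene.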

Additional observations from a re-analysis of the deposited data

Results flagged for a closer look

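Of 63 genes with a symbol named by rule, 13 differed in the hTERT-RPE1 effect between day 2 and day 1 (limma interaction term, adjusted p under 0.05). Among all genes with a symbol 1.16% did. The rule picked genes partly for large differences between days or lines and for large changes on day 2. The counts in this section were therefore favoured by the choice of genes and are descriptive. The effect was higher on day 2 for 12 of the 13. The log2 differences, day 2 minus day 1, were 2.31 for CCNA1, 1.20 for SPINT1, 1.07 for MCAM and 1.04 for PGF. They were 0.80 for CD82, 0.71 for LAMB3, 0.64 for SLC7A8 and 0.60 for C3. They were 0.59 for C1QTNF1, 0.51 for PMAIP1, 0.49 for TNFAIP2 and 0.45 for JAG1. The difference of NRG3 was -0.62.

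The effect on day 2 differed between hTERT-RPE1 and U2OS cells for 25 of the 63, beside 13.7% of all genes with a symbol. It was higher in hTERT-RPE1 cells for 15 of the 25. The log2 differences, hTERT-RPE1 minus U2OS, were 1.45 for MCAM, 1.50 for PCDHB5 and 1.06 for SPINT1. They were 0.97 for CASP8AP2, 0.94 for DHRS9, 0.84 for CD79A and 0.72 for MPP5. They were 0.72 for NRG3, 0.69 for TOMM22, 0.64 for LAMB3 and 0.59 for PMAIP1. They were 0.46 for LSS, 0.41 for SLC7A8, 0.40 for NUF2 and 0.40 for UNG. The effect was lower in hTERT-RPE1 cells for the other 10, with -2.24 for DKK1, -2.09 for ANGPT2, -1.83 for IL13RA2 and -1.59 for ZNF280A. They also include -1.56 for DHRS3, -0.97 for SLC7A11, -0.51 for SULF1, -0.65 for RUNX2, -0.45 for HBEGF and -0.27 for APAF1. For MPP5, NUF2, TOMM22, UNG, NRG3 and CASP8AP2 both lines were lowered and U2OS cells by more.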

How the results depend on the processing

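The 1413 calls of day 2 became 739 at an adjusted p of 0.01, 73 where a log2 change of 1 or more was also asked for and 495 with the 6 arrays alone. Leaving out each array in turn gave 874 to 1327. The called list members, 36, became 17 with the 6 arrays alone and 27 to 37 with an array left out. CASP8AP2 kept its call throughout, with -0.89 to -0.68 when an array was left out. The 144 differences between days became 67 with the arrays compared alone and 83 to 145 with an array left out, and the 2073 differences between lines became 1698 to 2072. The cause of these differences was not tested. Of 52 named genes called apart from CASP8AP2 (4 without a symbol among them), the calls of 30 held under every alternative run and 22 lost theirs under at least 1, and no direction reversed. Without genes below the median level, the genes of low level were not tested, CCNA1 among them.

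Arrays of the same number were not treated as paired in the main fit, and the labels do not say whether they shared a transfection. Their deviations from the group mean correlated by -0.08, -0.03 and -0.10, and those of unlike numbers by 0.01 to 0.08. With 3 arrays per group these values cannot settle whether arrays were paired. With the replicate block the counts were 959 on day 2, 86 for the difference between days, 1521 for that between lines and 27 for list members (21 higher and 6 lower), and CASP8AP2 had an adjusted p of 0.00109.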

Other observations

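Further genes with a symbol were called on day 2 outside the rule for named genes. They were chosen after their values were seen and are given as values. JUP, which links cadherins to the cytoskeleton, changed by 0.72 (SE 0.08, adjusted p 6.22e-06), and PRSS8, an epithelial membrane protease, by 0.73 (SE 0.13, adjusted p 0.000747). ITGA6, a laminin receptor subunit, changed by 0.28 (SE 0.06, adjusted p 0.00422), and COL7A1, the collagen of anchoring fibrils, by 0.46 (SE 0.08, adjusted p 0.000728). SNAI1, a repressor of epithelial cadherin, changed by 0.55 (SE 0.09, adjusted p 0.000385).

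IL1RN, the antagonist of the interleukin 1 receptor, changed by 0.84 (SE 0.08, adjusted p 1.01e-06), IL18 by 0.65 (SE 0.12, adjusted p 0.00106) and SOCS1, a feedback inhibitor of cytokine signalling, by 0.53 (SE 0.14, adjusted p 0.0259). CD274, which encodes PD-L1, changed by 0.40 (SE 0.11, adjusted p 0.0352). In contrast, CSF1, the ligand of CSF1R, changed by -0.35 (SE 0.07, adjusted p 0.00188). Further genes of the spindle were chosen here because they were called lower, so they add no support to the result for the spindle list, with -0.29 (SE 0.06, adjusted p 0.00444) for KIF15, -0.25 (SE 0.07, adjusted p 0.0341) for KIF18B, -0.19 (SE 0.05, adjusted p 0.0355) for CKAP2 and -0.17 (SE 0.05, adjusted p 0.036) for CKAP5.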
